A study of Mus musculus with 13 samples.

Results

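Transcripts of 8 enzymes of cell-surface glycans were followed in CGR8 mouse embryonic stem (ES) cells exposed to PhenDC3. PhenDC3 is a small molecule that binds and stabilises G-quadruplexes (G4). The enzymes were B3gnt7, B3gnt5, B3gnt2, B4galt1, Gcnt2, Fut9, Fut4 and St3gal1. All but St3gal1 act in building lactosamine chains or the SSEA-1 epitope. The 8 genes were found by symbol among the 24079 genes of the count table, and each had 1 entry. They were chosen by their role in these 2 pathways, and B3gnt7 was put among them because its counts fell strongly in these same libraries, so its change is described and not tested. Asynchronous cells were grown on gelatin with LIF and serum for 48 h in 0.5% DMSO (Ctrl) or in 10 μM PhenDC3 (PhenDC3), which was also given with 0.5% DMSO. RNA-seq was done on 3 samples of each condition. Short nascent strands (SNS), which mark newly fired replication origins and carry an RNA primer, were sequenced from 3 Ctrl and 2 PhenDC3 samples of the same cell line, an RNase-treated library of each condition being used by the authors as the control for peak calling. CGR8 is a single established line, and nothing in the labels says whether replicates came from separate cultures, so p-values measure the spread between these samples, which may be technical.

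Lactosamine is a galactose joined to an N-acetylglucosamine (GlcNAc). Repeats of it form long chains on N-glycans, O-glycans and glycolipids when a GlcNAc transferase and a galactosyltransferase act in turn, and the finished chain can be branched, fucosylated, sialylated or sulphated. A fucose on the GlcNAc gives Lewis x, the epitope known as SSEA-1, by which mouse ES cells are recognised with antibodies. In these enzymes the B3gnt genes encode GlcNAc transferases, B4galt1 a galactosyltransferase, Gcnt2 the branching enzyme of the I antigen, Fut9 and Fut4 the fucosyltransferases that make Lewis x, and St3gal1 a sialyltransferase that caps O-glycans.

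Because PhenDC3 acts on G4, the sequence around the start sites of these genes is shown first. In GRCm38 (mm10), B3gnt7 covers chr1:86303221-86307305 on the plus strand and has 2 exons. The 250 bases before its start site (chr1:86302971-86303220, from RefSeq) are given in the direction of the gene, with the 2 copies of the GC box GGGCGG, or its reverse complement, in capitals:
B3gnt7 upstream: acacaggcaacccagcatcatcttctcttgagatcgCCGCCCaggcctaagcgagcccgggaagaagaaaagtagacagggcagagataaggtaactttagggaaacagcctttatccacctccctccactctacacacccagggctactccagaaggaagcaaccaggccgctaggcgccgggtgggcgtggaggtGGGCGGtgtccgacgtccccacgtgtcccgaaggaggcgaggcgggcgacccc

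This window held no match of the G4 pattern searched here, which was at least 4 runs of at least 3 G on either strand with loops of 1 to 7 bases. The single match within 1 kb of the B3gnt7 start site lay in intron 1, 608 to 632 bases from the start site, with its G runs on the strand opposite to the gene. That match was inside an SNS-seq peak of the Ctrl 2 list (chr1:86303736-86303883). The 148 bases of the peak are printed on the gene's strand with the match, seen here as its C runs and the bases between them, in capitals:
B3gnt7 intron 1 peak: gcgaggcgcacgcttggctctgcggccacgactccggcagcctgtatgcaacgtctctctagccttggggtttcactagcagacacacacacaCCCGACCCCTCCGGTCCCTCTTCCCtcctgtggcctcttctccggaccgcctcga

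Other members also had matches near their start sites. The lines below give some of them on the strand that carries the G runs, with the runs in capitals, so that they can be set beside the intronic match of B3gnt7:
B3gnt7, chr1:86303829-86303853: GGGaagaGGGaccggaGGGGtcGGG
B3gnt5, chr16:19760182-19760201: GGGGtaGGGGaGGGGcGGGG
B3gnt2, chr11:22859740-22859761: GGGcGGGGGcGGGaccgaaGGG
Fut4, chr9:14752415-14752445: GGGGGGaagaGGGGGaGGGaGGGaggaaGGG
B4galt1, chr4:40854245-40854276: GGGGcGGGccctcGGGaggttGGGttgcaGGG

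The B3gnt5 match lay 33 to 52 bases before the annotated start site. The B3gnt2 match lay 5 to 26 bases before the inner of its 2 start sites. Both had their G runs on the strand of the gene. The Fut4 and B4galt1 matches lay before the gene, with their G runs on the opposite strand. Every one of the 8 members had at least 1 match of the pattern within 1 kb of a start site, against 56.7% of all 26180 genes with an annotated start site. By G4Hunter, which scores G richness and G skew in windows of 25 bases (threshold 2), 7 of the 8 members were positive and B3gnt7 was not, against 57.4% of all genes. RefSeq promoter windows (250 bases before to 50 after a start site) were available for B3gnt7, B3gnt5, B3gnt2, Fut4, B4galt1 and Gcnt2, 8 windows in all. GGGCGG on either strand was found in 5 of them (35.7% of 32851 windows genome-wide) and the G4 pattern, which GGGCGG can overlap, in 4 (18.6% genome-wide). CCAAT was found in 1 of the 8 windows and TATAAA in 0 (37.4% and 13.6% genome-wide, both strands). Fut9 and St3gal1 are named only.

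The libraries held between 22232014 and 29486502 counts, and all 8 members passed the filter on low counts along with 13972 genes in all. Levels are CPM, the counts of a gene per 1000000 counts of the library after relative log expression scaling. As a check of the label, all 10 ES cell markers examined were tested and abundant, with a summed level of 7623 to 8496 CPM in Ctrl and 8621 to 10042 CPM in PhenDC3. Nanog was higher with PhenDC3 and Utf1 lower, among 4 markers that rose and 3 that fell. For comparison with these and the next counts, 18.0% of all 13972 genes tested rose and 18.7% fell. Of markers of other cell types, 4 of the 5 tested genes of primitive endoderm rose (summed level of the list 18.5 to 32.7 CPM in Ctrl and 45.3 to 59.8 CPM in PhenDC3), as did 2 of 4 of trophoblast (40.5 to 51.4 and 74.8 to 107 CPM), while 0 of 3 mesoderm markers changed, 1 of 4 neural markers fell and 1 of 3 fibroblast markers fell. Most of the trophoblast sum was Tfap2c (33.0 to 43.8 CPM in Ctrl and 67.3 to 96.1 CPM in PhenDC3). Krt7 also rose, from a mean of 1.60 to 4.09 CPM. Cdx2 (means 0.339 and 0.331 CPM) and Eomes (5.24 and 3.79 CPM, in the other direction) were not called. Dcn, of the fibroblast list, was at 0 in every library. Counts assigned to the ribosomal RNA gene Rn45s made up 2.55 to 5.70% of the Ctrl libraries and 0.172 to 1.43% of the PhenDC3 libraries. Whether these differences have a part in the values below was not tested, except that leaving out Rn45s and Lars2 (0.75 to 0.996% of Ctrl and 0.114 to 0.403% of PhenDC3 libraries) changed no call among the members. In bulk RNA, fewer cells with a transcript and less of it per cell cannot be told apart.

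B3gnt7 encodes a GlcNAc transferase that extends lactosamine chains, sulphated ones of the keratan sulphate type in particular. Its level was 114, 126 and 110 CPM in Ctrl 1, 2 and 3, and 28.0, 24.2 and 28.0 CPM in PhenDC3 1, 2 and 3. The lowest Ctrl sample thus lay far above the highest PhenDC3 sample, and within a condition the samples lay close together. The means were 116 ± 8.22 CPM in Ctrl and 26.7 ± 2.18 CPM in PhenDC3 (SD, n = 3), a fitted log2 fold change of -2.12, or 4.35-fold lower with PhenDC3. This change was the 177th lowest of the 13972 genes tested. The log2 fold change was between -2.17 and -2.05 when any 1 of the 6 samples was left out. Since B3gnt7 was chosen for its fall in these same samples, rank and range only describe it and lend that fall no support. The counts behind it were 3148, 2755 and 2538 in Ctrl and 808, 579 and 770 in PhenDC3. An antisense long noncoding RNA, Gm28626, overlaps 840 bases of the gene, and the strand setting of the counting is not given in the sources used here, so that reads of the 2 could not be told apart.

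**Figure D1:**
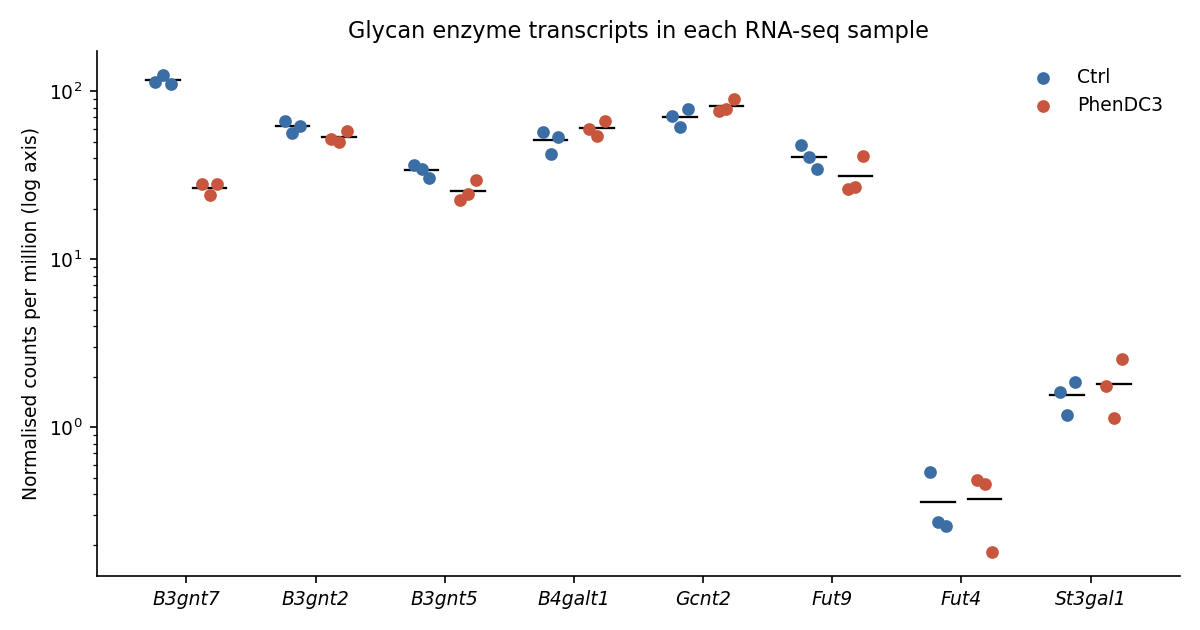
Level of each of the 8 enzymes in every RNA-seq sample, in CPM on a log axis, with 1 point per sample (3 Ctrl in blue, 3 PhenDC3 in red) and the mean as a black line. B3gnt7 separates the conditions widely (110 to 126 against 24.2 to 28.0 CPM), B3gnt5 narrowly, and the points of the other 6 genes overlap between the conditions.

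The other 2 GlcNAc transferases among the members are B3gnt5 and B3gnt2. B3gnt5 makes the GlcNAc-containing core of the lacto-series glycolipids, and its level was 36.5, 34.6 and 30.4 CPM in Ctrl and 22.5, 24.5 and 29.5 CPM in PhenDC3. The conditions did not overlap, but Ctrl 3 and PhenDC3 3 lay less than 1 CPM apart. B3gnt5 fell by 0.41 on the log2 scale (SE 0.138, 95% interval -0.72 to -0.10, adjusted p = 0.0449 by edgeR). It was the only 1 of the 7 members other than B3gnt7 that passed the test, against 36.8% of all 13972 genes tested (18.0% higher and 18.7% lower). It was also the only 1 of the 7 whose conditions did not overlap, against 50.6% of all genes tested. The adjusted p rose to 0.129 without Ctrl 1, 0.0848 without Ctrl 2, 0.182 without PhenDC3 1 and 0.117 without PhenDC3 2, so the call rests on these samples.

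B3gnt2, the enzyme known as the main extender of lactosamine chains on N-glycans, was measured at 66.7, 56.4 and 62.2 CPM in Ctrl and 52.0, 49.6 and 57.8 CPM in PhenDC3. Its ranges overlapped, since PhenDC3 3 lay above Ctrl 2. The log2 fold change was -0.22 (95% interval -0.47 to 0.04, adjusted p = 0.168), and the gene did not pass the test.

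Per kilobase of exon, B3gnt7 was the most abundant of the 8 in Ctrl, at 44.9 ± 3.17 RPKM (CPM per kilobase of exon, SD, n = 3), above 87.3% of the genes tested. It was followed by B3gnt2 (21.9 ± 1.84 RPKM), B4galt1 (12.0 ± 1.87 RPKM) and Gcnt2 (9.94 ± 1.21 RPKM). Then came B3gnt5 (6.94 ± 0.646 RPKM), Fut9 (3.40 ± 0.559 RPKM), St3gal1 (0.269 ± 0.0592 RPKM) and Fut4 (0.0979 ± 0.0436 RPKM). Of neighbours in this order, only B4galt1 and Gcnt2 overlapped between samples. The level of Gcnt2 was 16.0 RPKM when its longest transcript was used as the length, which puts it above B4galt1. In PhenDC3 the order was B3gnt2 (18.9 ± 1.49 RPKM), B4galt1 (14.1 ± 1.51 RPKM), Gcnt2 (11.6 ± 1.03 RPKM) and B3gnt7 (10.3 ± 0.841 RPKM), with the last 4 genes in the order they had in Ctrl.

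Taken as a sum, the 3 GlcNAc transferases B3gnt7, B3gnt2 and B3gnt5 had 75.1, 75.5 and 70.6 RPKM in Ctrl and 33.9, 32.0 and 37.3 RPKM in PhenDC3. B3gnt7 made up 58.5, 64.1 and 59.9% of that sum in Ctrl and 31.9, 29.2 and 28.9% in PhenDC3. B3gnt2 took the larger share with PhenDC3, at 54.5, 55.1 and 54.9%, without being higher in level. These shares follow from the fall by which B3gnt7 was chosen and are given as a description.

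**Figure D2:**
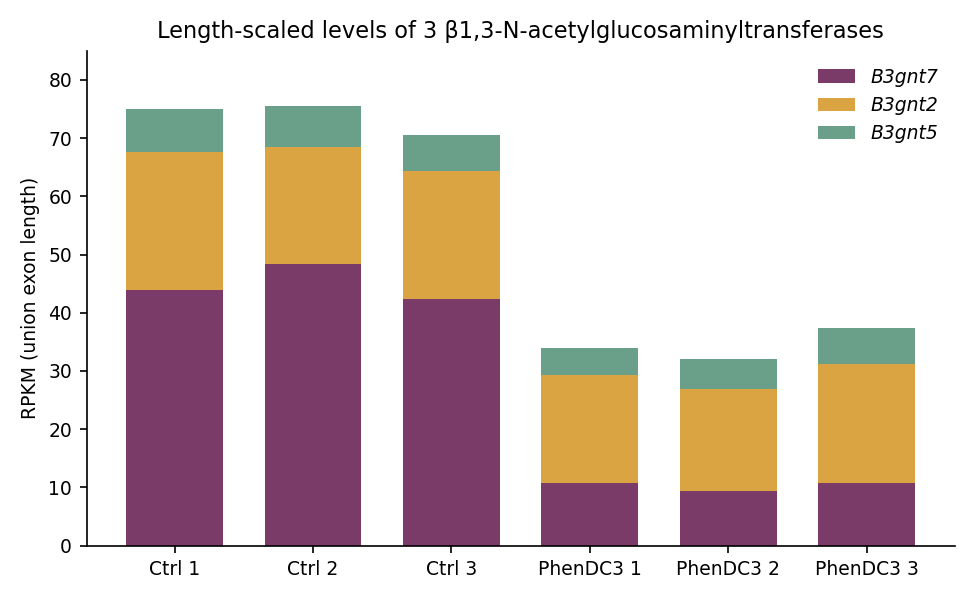
Stacked bars of the length-scaled level (RPKM, axis from 0) of B3gnt7, B3gnt2 and B3gnt5 in each of the 6 RNA-seq samples. The bars reach 70.6 to 75.5 RPKM in Ctrl and 32.0 to 37.3 RPKM in PhenDC3, and the part of B3gnt7 shrinks while that of B3gnt2 is of similar height in all samples.

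The members that act on the chain after GlcNAc has been added did not pass the test. B4galt1, which adds the galactose, was measured at 57.5, 42.1 and 53.5 CPM in Ctrl and 59.4, 53.9 and 66.8 CPM in PhenDC3. Its conditions overlapped and its log2 fold change was 0.23 (95% interval -0.09 to 0.56, adjusted p = 0.227). Gcnt2, which turns a linear chain into a branched one, had 70.9, 61.1 and 78.0 CPM in Ctrl and 76.7, 78.2 and 90.0 CPM in PhenDC3. PhenDC3 1 lay below Ctrl 3, and the log2 fold change was 0.22 (95% interval -0.06 to 0.51, adjusted p = 0.195). Gcnt2 uses 3 start sites with alternative first exons, and gene counts do not separate their transcripts. The antisense RNAs A730081D07Rik and Gm31683 overlap it.

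Of the fucosyltransferases that make Lewis x, Fut9 was the more abundant. It stood at 47.7, 40.5 and 34.3 CPM in Ctrl and 26.3, 27.0 and 41.0 CPM in PhenDC3. PhenDC3 1 and 2 lay below every Ctrl sample, whereas PhenDC3 3 lay above Ctrl 2 and Ctrl 3. The log2 fold change was -0.38 (SE 0.195, 95% interval -0.82 to 0.06, adjusted p = 0.158). Without PhenDC3 3 it was -0.62 with an adjusted p of 0.0283, so 1 library decided that call. Fut4, the other fucosyltransferase, had only 15, 6 and 6 counts in Ctrl and 14, 11 and 5 counts in PhenDC3. Fut4 did not pass the test, and these few counts left a wide interval (log2 fold change 0.03, 95% interval -1.14 to 1.20, adjusted p = 0.968).

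St3gal1, which transfers sialic acid to the galactose of O-glycans, was also scarce, at 1.63, 1.19 and 1.86 CPM in Ctrl and 1.77, 1.13 and 2.54 CPM in PhenDC3. The lowest and the highest of the 6 values were both PhenDC3 samples. Its log2 fold change was 0.22 (95% interval -0.54 to 0.98, adjusted p = 0.637), and it changed sign, to -0.10, without PhenDC3 3. An antisense RNA, Gm31400, overlaps the gene.

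The profile over the 6 samples most like that of B3gnt7 was sought among all genes tested. The measure was the smallest root mean square difference of log2 CPM centred on each gene's mean. A small constant was added to CPM before the log, which narrows the changes of scarce genes. The 5 nearest were Nt5dc2 (difference 0.0802), 2010204K13Rik (0.0964), Manba (0.117), Zp3 (0.117) and Stmn2 (0.128). Manba, which encodes the lysosomal beta-mannosidase of N-glycan breakdown, went from 113 CPM in Ctrl to 26.2 CPM in PhenDC3 on average, and Nt5dc2 from 121 to 29.2 CPM. Likeness in fold change is built into this choice, and the mean levels of the other 3 in Ctrl were 28.9 CPM (2010204K13Rik), 6.63 CPM (Zp3) and 300.5 CPM (Stmn2). Zp3 was at a mean of only 0.946 CPM in PhenDC3. Its fitted log2 fold change was -2.79, beside -2.12 for B3gnt7, so its small difference depends on the constant.

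To place the members in their pathways, 10 lists of glycan genes were examined, with B3gnt7 left out of the counts. Together the lists held 160 genes, of which 129 were tested. Of these, 26 rose and 12 fell, 29.5% in all, against 36.8% of all genes tested. Those that rose were 20.2% (18.0% of all genes) and those that fell were 9.30% (18.7% of all genes). The median log2 fold change was 0.18, beside 0.01 for all genes tested. The lists were chosen with earlier results of these data known. Of the 26 genes that rose, 19 kept their call under all 11 other settings, and of the 12 that fell, 4 did.

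In the lactosamine list, 2 of 15 tested genes rose and 1, B3gnt5, fell. B4galt6, which makes lactosylceramide, rose from 102 ± 4.53 to 165 ± 7.12 CPM (SD, n = 3 each, log2 fold change 0.69, SE 0.101, adjusted p = 0.00112). B4galt4, a galactosyltransferase that prefers sulphated GlcNAc, rose from 4.32 ± 0.825 to 9.78 ± 1.76 CPM (log2 fold change 1.18, adjusted p = 0.00295). No PhenDC3 sample of either gene overlapped with Ctrl. Of the keratan sulphate list, which shares B4galt4, 1 of 10 tested genes rose and 1 fell. The latter was Chst5, a sulphotransferase of GlcNAc at 0.883 ± 0.113 CPM in Ctrl and 0.429 ± 0.0993 CPM in PhenDC3, whose call was lost without a low-count filter, with DESeq2 and when any sample but Ctrl 3 was left out (highest adjusted p 0.142). Podxl, a mucin-like carrier of such chains on ES cells, had means of 93.4 and 95.7 CPM (log2 fold change 0.03, adjusted p = 0.879).

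Among fucosylation genes, 2 of 7 tested rose and 0 fell. The first was Fut8, which fucosylates the core of N-glycans (16.3 ± 0.850 to 22.8 ± 1.62 CPM, log2 fold change 0.48, adjusted p = 0.0135). The second was Pofut1, which adds fucose to Notch and other proteins with EGF repeats (30.6 ± 1.94 to 39.4 ± 1.13 CPM, adjusted p = 0.0270). Neither makes Lewis x. The call of Fut8 was lost without PhenDC3 1 or PhenDC3 2 (adjusted p up to 0.0646), and that of Pofut1 without any single sample but Ctrl 1 (up to 0.108).

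The sialylation list had 3 rises and 2 falls among 15 tested genes. St8sia1, the synthase of the ganglioside GD3, rose from 27.5 ± 3.62 to 88.9 ± 11.5 CPM (log2 fold change 1.70, SE 0.142, adjusted p = 9.49e-05). All 3 PhenDC3 samples were at 80.2 CPM or more, and no Ctrl sample exceeded 31.3 CPM. St3gal4, which can cap lactosamine chains with sialic acid, rose from 8.93 ± 2.87 to 16.2 ± 1.22 CPM (log2 fold change 0.86, adjusted p = 0.0184). St8sia5 rose by 2.42 on the log2 scale from a level of 0.266 CPM. St6galnac2, which sialylates the GalNAc of O-glycans, was lower, at 8.97 ± 3.08 CPM in Ctrl and 5.04 ± 0.347 CPM in PhenDC3 (adjusted p = 0.0320, and up to 0.102 without any single sample but Ctrl 3). St8sia3 fell by 2.01 on the log2 scale, from 0.614 CPM.

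Mucin-type O-glycans start with a GalNAc, and 5 of the 18 tested genes of that list rose while 1 fell. All 5 were polypeptide GalNAc transferases. Galnt1 rose from 46.5 ± 2.55 to 93.2 ± 1.92 CPM (log2 fold change 1.00, SE 0.101, adjusted p = 0.000192) and Galnt16 from 0.707 ± 0.115 to 2.44 ± 0.743 CPM (log2 fold change 1.77, adjusted p = 0.00302). The other 3 were Galnt2, Galnt7 and Galnt11, with log2 fold changes of 0.76, 0.99 and 0.64. Galnt12 was lower (2.91 ± 0.299 to 1.81 ± 0.325 CPM, adjusted p = 0.0443), a call lost without a low-count filter, with DESeq2 and without any single sample but Ctrl 3 (highest adjusted p 0.145).

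For N-glycan branching, 3 of 14 tested genes rose and 0 fell. Man2a2, a Golgi mannosidase, rose from 20.3 ± 2.27 to 42.1 ± 4.70 CPM (log2 fold change 1.05, adjusted p = 0.000599). Mgat3, which adds the bisecting GlcNAc, rose from 17.9 ± 1.60 to 29.7 ± 4.31 CPM (adjusted p = 0.00455). Mgat4c rose from 0.631 to 1.43 CPM (adjusted p = 0.0222, and up to 0.102 without Ctrl 2 or PhenDC3 1). In the glycolipid list, 3 of 13 genes rose and 1 fell, 3 of which (B4galt6, St8sia1 and B3gnt5) are given above. The remaining one was A4galt, the synthase of globotriaosylceramide (16.8 ± 2.06 to 30.9 ± 5.40 CPM, log2 fold change 0.88, adjusted p = 0.00299).

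Genes that supply the sugar donors were the only list with more falls than rises, 5 against 3 of 26 tested, with a median log2 fold change of -0.10. The share that fell was 19.2%, near the 18.7% of all genes tested, and the share that rose was 11.5%, beside 18.0%. Gfpt2 and Gfpt1 both encode the entry enzyme of UDP-GlcNAc synthesis and went in opposite directions. Gfpt2 fell from 101 ± 13.9 to 50.05 ± 6.06 CPM (log2 fold change -1.01, SE 0.140, adjusted p = 0.000858), and Gfpt1 rose from 33.3 ± 6.58 to 55.7 ± 5.57 CPM (log2 fold change 0.74, adjusted p = 0.00707). Among the others that fell were Nans, which makes sialic acid (113 ± 4.18 to 76.9 ± 7.97 CPM, adjusted p = 0.00530), Galk1, the galactokinase (104 ± 27.6 to 67.3 ± 15.0 CPM, adjusted p = 0.0428), and Tsta3, which makes GDP-fucose. The call of Galk1 was lost without Ctrl 2, PhenDC3 1 or PhenDC3 3 (highest adjusted p 0.134) and that of Tsta3 without any single sample but Ctrl 3 (0.103). Uap1l1, whose product resembles the UDP-GlcNAc pyrophosphorylase, and the nucleotide sugar transporter Slc35d1 rose, with log2 fold changes of 0.98 and 0.91.

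Of genes whose products remove sugars, 5 of 11 tested rose and 1 fell. Hexa, which encodes a subunit of lysosomal hexosaminidase, rose from 45.4 ± 9.39 to 85.2 ± 14.0 CPM (log2 fold change 0.91, adjusted p = 0.00456). Neu3, the plasma membrane sialidase, rose from 5.04 ± 0.742 to 7.31 ± 0.188 CPM (adjusted p = 0.0372, and up to 0.101 without any single sample but Ctrl 1; lost also without a low-count filter). Of galectins and glycan carriers, 2 of 10 tested rose and 1 fell. Lgals3, the galectin that binds lactosamine chains, fell from 22.1 ± 5.13 to 7.93 ± 0.970 CPM (log2 fold change -1.48, SE 0.189, adjusted p = 0.000600), with every PhenDC3 sample below every Ctrl sample. Lgals8 rose from 7.37 ± 0.345 to 13.6 ± 1.57 CPM (adjusted p = 0.00221), and the lysosomal carrier Lamp2 from 47.3 ± 3.80 to 75.5 ± 10.3 CPM (adjusted p = 0.00395).

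**Figure D3:**
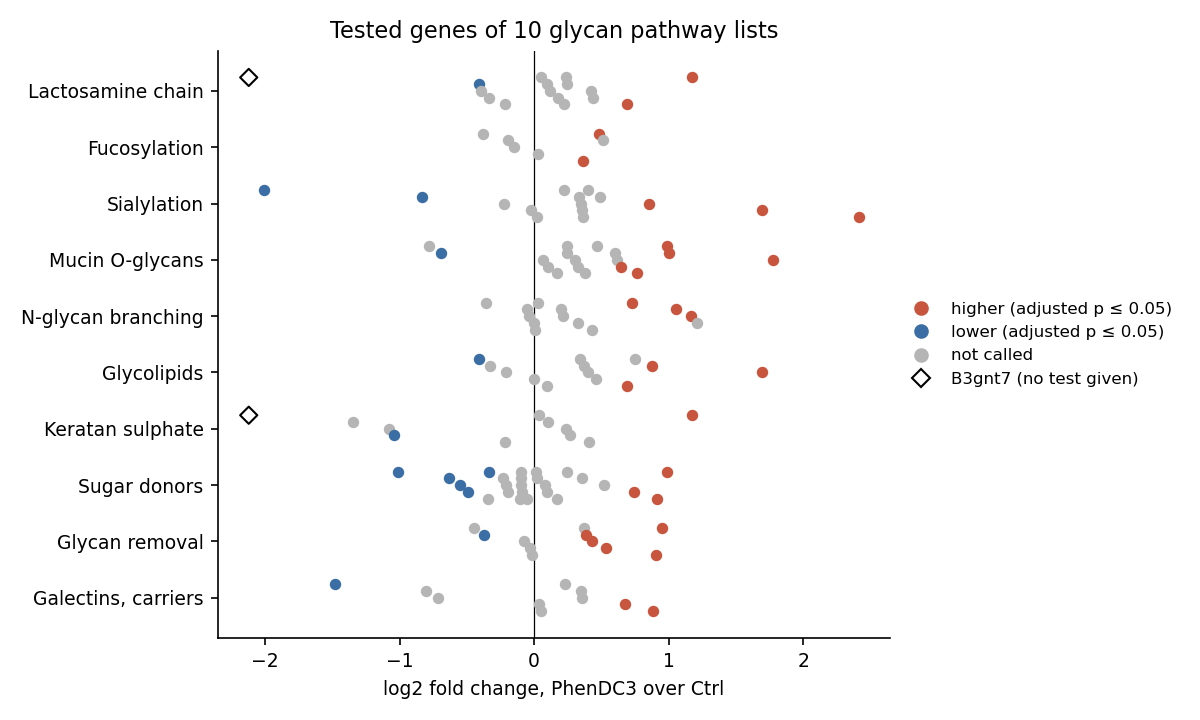
Log2 fold change of every tested gene of the 10 glycan lists, PhenDC3 over Ctrl, with 1 point per gene (red, higher and blue, lower at an adjusted p of at most 0.05; grey, not called). B3gnt7 is an open diamond at -2.12 with no test, left of all other lactosamine genes, and red points outnumber blue in 8 lists, with the sugar donors the one list where blue ones are more frequent.

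Replication origins at the 8 genes were examined in the SNS-seq lists, which the choice of the members did not use. The lists held 120882, 81211 and 79377 peaks in Ctrl and 144103 and 102400 in PhenDC3. Their read depth is unknown. In the genes and the 2 kb before them (477 kb in all), 31, 23 and 14 peaks were found in Ctrl 1, 2 and 3 and 27 and 20 in PhenDC3 1 and 2. Per 10000 peaks of the list these were 2.56, 2.83 and 1.76 in Ctrl and 1.87 and 1.95 in PhenDC3. The ranges overlapped, with Ctrl 3 the lowest of all, and the means differed by -0.473 (exact permutation test, two-sided, p = 0.6, where 3 against 2 samples can give no less than 0.2).

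Within 2 kb of a start site of the members, 16, 13 and 1 peaks lay in Ctrl and 8 and 3 in PhenDC3. The low number in Ctrl 3 went with the whole list, in which 29.6% of 26180 genes had a peak within 2 kb of a start site, against 48.8 and 45.8% in Ctrl 1 and 2. The shares were 49.6 and 35.2% in PhenDC3 1 and 2.

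At B3gnt7, overlapping peaks in intron 1 were present in Ctrl 1 (9.99-fold over the RNase-treated library), Ctrl 2 (3.90-fold) and PhenDC3 1 (3.84-fold), and there was none in the lists of Ctrl 3 and PhenDC3 2. The G4 match printed above lies inside the peaks of Ctrl 1 and Ctrl 2, whereas the peak of PhenDC3 1 ended at position 86303822, before the match. The summits of the 3 peaks lay 550 to 575 bases from the start site. Ctrl 1 had 4 more peaks in exon 2 (2.76- to 5.30-fold), and PhenDC3 2 had 1 there (5.35-fold). The presence of an intronic peak thus did not separate the conditions. B3gnt5 had no peak in any list.

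Merged peaks found in at least 2 lists of a condition were counted as origins. The members held 24, of which 9 were in at least 2 Ctrl lists and in both PhenDC3 lists. Another 6 were in Ctrl only (25%, against 18.4% of all 101678 origins) and 2 in PhenDC3 only (8.33%, against 18.3%). The remaining 7 were in between, with a peak in both conditions but in too few lists of 1 of them. Of the 6, 4 lay at B3gnt2, 3 of them within 220 bases of a start site, and each was in Ctrl 1 and Ctrl 2 but not Ctrl 3. A further B3gnt2 origin, 440 bases from a start site, was kept in both PhenDC3 lists (3.45- and 3.61-fold in Ctrl, 2.90- and 3.46-fold in PhenDC3). Fut9 and Fut4 each had 1 of the 6. The 2 origins of PhenDC3 only were intronic, 1 in St3gal1 (6.30- and 7.18-fold) and 1 in Gcnt2 (3.34- and 4.55-fold).

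Of the 24 origins, 6 were present in all 5 lists, 1 each at B4galt1 and Fut9 and 2 each at St3gal1 and Gcnt2. The one before B4galt1 was at 7.99-, 7.81- and 6.63-fold in Ctrl and 10.4- and 5.66-fold in PhenDC3, and it holds the B4galt1 match printed above. The one in Fut9 lay in an intron 71895 bases from the start site, at 15.3-, 12.6- and 16.7-fold in Ctrl and 8.62- and 8.66-fold in PhenDC3. Single origins were not tested, since the enrichment of each condition is relative to its own RNase-treated library. A G4 by G4Hunter lay within 500 bases of the centre in 18 of the 24 origins (75.0%, against 69.5% of all origins), and in 2 of the 6 at B3gnt2. The origin in B3gnt7 was among the 18, at the threshold score of 2, with the G on the strand of the gene. That stretch is not the match printed above, which scored -1.72 with its G on the opposite strand. The window around the origin is also not the one around the start site, by which B3gnt7 was not positive.

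**Figure D4:**
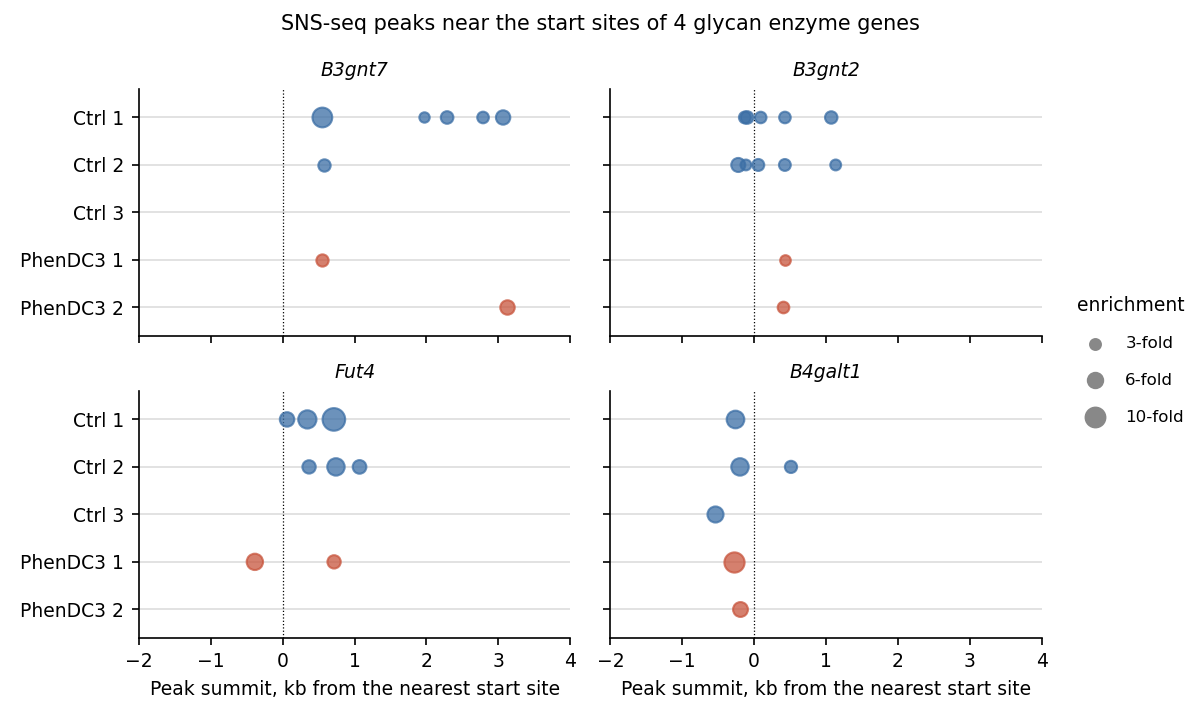
SNS-seq peaks from 2 kb before to 4 kb after the start sites of B3gnt7, B3gnt2, Fut4 and B4galt1, with 1 line per list (3 Ctrl in blue, 2 PhenDC3 in red), peak summits placed by distance from the nearest start site in kb and circle area scaled to fold enrichment. B4galt1 has a peak before its start site in all 5 lists, B3gnt2 has 5 peaks in Ctrl 1 and in Ctrl 2 and 1 in each PhenDC3 list, and Ctrl 3 shows a peak at B4galt1 alone.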

How the data were processed

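RNA-seq libraries were made with a stranded mRNA kit. The authors mapped the reads with TopHat 2.1.1 and Bowtie2 2.2.9 and deposited raw counts per gene made with HTSeq 0.6.1p1 (versions from the paper and the submitters' processing notes). Annotation and strand setting of the counting are not given in the sources used here. For SNS-seq, the authors mapped reads to mm10 with Bowtie2, called narrow peaks per replicate with MACS2 2.1.0 against the RNase-treated library of the condition and kept those in SICER regions. The deposited peak lists give the fold enrichment as a ratio and the −log10 of a p-value, and no read counts. A deposited table of normalised pseudo-counts and one of the authors' own comparison (fold changes and p-values) were not used.

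Conditions were compared with edgeR 4.0.16 in R 4.3.3 (quasi-likelihood test, robust, relative log expression, filterByExpr, Benjamini-Hochberg over all 13972 genes tested, threshold 0.05). The fit was tested on simulated data with 200 changed genes. RPKM used the union of exons of curated RefSeq transcripts (GRCm38.p6), and all chromosomes of the peak lists fitted within that build. Rates of peaks were compared by exact permutation over samples. The members and lists were chosen with earlier results of these data known. Named are the members, up to 2 of the largest rises and falls of each list (adjusted p of at most 0.05, mean CPM of at least 1, no overlap) and the 5 profiles nearest to B3gnt7. Other list genes are given with their values, except some that are not reported here. Alternatives were TMM scaling, no low-count filter, DESeq2 1.42.0, the replicate number as a block, each sample left out and, added after seeing the data, the counts without Rn45s and Lars2 and these settings for each called list gene and Podxl. Peaks were also compared with the stronger part of each list, with equal numbers of peaks, and within 2 kb of start sites.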

Additional observations from a re-analysis of the deposited data

How the results depend on the processing

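The direction of B3gnt7, B3gnt5, B3gnt2, Fut9, B4galt1 and Gcnt2 was the same under all 11 alternative fits. B3gnt7 ranged from -2.17 to -2.05 on the log2 scale, which is a description only, as it was chosen for its fall in these same samples. Fut4 turned negative without Ctrl 2 (-0.13), Ctrl 3 (-0.16), PhenDC3 1 (-0.21) or PhenDC3 2 (-0.12), St3gal1 without PhenDC3 3 (-0.10) and Podxl without Ctrl 2 (-0.074) or PhenDC3 1 (-0.056), none of them called. With 1 sample left out, Fut4 reached up to 0.48, St3gal1 up to 0.47 and Podxl up to 0.16. With 1 sample left out in turn, 0 to 2 of the 7 other members were lower and 0 were higher, 4 to 14 of the glycan genes were lower and 20 to 26 higher, and 1623 to 2727 of all genes were lower and 1709 to 2689 higher. These fits have fewer samples.

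With the replicate number as a block, 1 member was higher (Gcnt2, adjusted p = 0.0499) beside 0 without it. With it, 45 glycan genes were higher beside 26, and 3797 of all genes beside 2518. Falls also grew in number, to 17 glycan genes beside 12 and 3692 of all genes beside 2617. Deviations of samples with the same number correlated at 0.0983, 0.627 and 0.486. Each sample correlated best with its own number, though for PhenDC3 1 the value with Ctrl 3 was nearly the same (0.0892). The labels do not say that numbers mark a shared culture or day. The cause of the other changes was not tested. TMM, DESeq2, no filter and the fit without Rn45s and Lars2 kept every member on its side of the threshold. The difference in peak rate stayed negative, from -0.785 to -0.251 with 1 list left out and from -0.593 to -0.126 otherwise. Counting depth limits Fut4 and St3gal1.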
